A study of Homo sapiens with 9 samples.

Results

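The replication-dependent histone genes encode the core histones H2A, H2B, H3 and H4 and the linker histones H1 that package newly made DNA. The cell makes these mRNAs mainly in S phase. Most of them carry no poly(A) tail: they end in a short stem-loop that is bound by the protein SLBP, and the U7 small nuclear RNP takes part in cutting the transcript there. A few of these genes are also known to give spliced or longer, polyadenylated transcripts. The genes lie in clusters, often as pairs of H2A and H2B genes read in opposite directions from a shared promoter, and several copies encode the same protein.

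The members were the protein-coding genes named H1-1 to H1-5, or with a symbol that starts with H2AC, H2BC, H3C or H4C and goes on with a number. This rule took 69 of the 60719 genes in the table, and no measured value entered it. By class these were 5 H1, 17 H2A, 19 H2B, 13 H3 and 15 H4 genes. In RefSeq (GRCh38.p14), 54 lie on chromosome 6 and 13 on chromosome 1, with H4C16 on chromosome 12 and H2BC12L on chromosome 21.

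The study measured RNA in MDA-MB-231 cells, a human breast cancer line labelled wild type, after 72 h in medium cleared of vesicles. It asked how small extracellular vesicles (sEV) from senescent cancer cells act on other cancer cells. In the TIS sEV group (n = 3) the vesicles came from MDA-MB-231 donor cells given nocodazole, a microtubule poison, at 100 ng/ml for 72 h and then released for 72 h, a treatment the study names therapy-induced senescence. In the Cont sEV group (n = 3) the donors had received the solvent DMSO, and the No sEV group (n = 3) received no vesicles. The labels do not say whether the replicates were separate cultures, and the p-values therefore speak only of the spread among these 9 libraries, part of which may be technical. The donors' nocodazole treatment and their senescence cannot be told apart.

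Values were TPM, relative transcript abundances corrected for transcript length, so every library sums to 1000000, read depth is unknown, and fewer S phase cells and less RNA per cell cannot be told apart. Genes above 0 numbered 21292 to 21975 per library. The line's expected markers VIM, CD44, KRT18, KRT8 and AXL summed to 3817 to 3883 TPM with TIS sEV, 3678 to 3743 TPM with Cont sEV and 3676 to 3759 TPM with No sEV. Of the markers expected to be low, ESR1, PGR and CDH1 averaged under 1 TPM and EPCAM averaged 23.0 TPM. Of the markers of other cell types, leukocyte CD68 averaged 153 TPM and fibroblast COL1A1 8.08 TPM, and the fibroblast, leukocyte and endothelial lists were otherwise under 2 TPM.

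Sequence near the transcript end is shown first because it is what sets these mRNAs apart from others. Reference transcripts of GENCODE 29 were searched, in their last 100 bases, for an inverted repeat of 16 bases with arms of 6 bases that start with GG and a loop of 4 bases. It was found in 11 of the 69 members (15.9%) and in 0.594% of 19684 protein-coding genes. For H2BC15 the match lies within the coordinates of another member, H2AC16, and is reached by 1 of its 4 transcript models. The models of 32 members hold only coding length, so the search could find nothing in them. The 11 matches had 4 distinct sequences. The most frequent was found in 7 members, among them H2AC19. The following lines give 1 gene for each distinct form, with the repeat and its loop in capitals.
H2AC19: aaaaGGCTCTTTTCAGAGCCaccc
H2BC5: caaaGGCTCTTTTAAGAGCCacgc
H3C6: caaaGGCTCTTCTCAGAGCCaacc
H4C11: aaaaGGCCCTTTTCAGGGCCaccc
In GENCODE 29 (GRCh38), the capitals of H2AC19 lie at chr1:149851574-149851589 on the plus strand. Those of H2BC5 lie at chr6:26158587-26158602, those of H3C6 at chr6:26225596-26225611 and those of H4C11 at chr6:27824459-27824474, all on the plus strand. H2BC5 has 1 transcript of 496 bases with its stem-loop near the end and 1 of 789 bases that lacks it.

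Promoters were read from RefSeq (GRCh38.p14) as the 250 bases before the gene start, and 63 of the 69 members matched an entry. CCAAT, on either strand, was in 53 of the 63 (84.1%), against 32.0% of all 35116 promoters in the table. TATAAA, on either strand, was in 42 of the 63 (66.7%), against 10.7% of all promoters. Genes read in opposite directions from a shared promoter share some of these bases, so the same match can count for both partners. The 63 are therefore not all separate sequences. The classes differed in CCAAT: all 50 promoters of H1, H2A, H2B and H3 genes held it, 5, 16, 18 and 11 in turn, and 3 of 13 H4 promoters did. A match is a description of letters and not of binding. The promoters of the most abundant H1 gene, of the most abundant H2B gene and of the shared stretch between H2AC6 and H2BC4 are given because the results below turn on these genes. CCAAT and TATAAA, or their reverse complements, are in capitals, and overlapping matches were each counted.
H1-2: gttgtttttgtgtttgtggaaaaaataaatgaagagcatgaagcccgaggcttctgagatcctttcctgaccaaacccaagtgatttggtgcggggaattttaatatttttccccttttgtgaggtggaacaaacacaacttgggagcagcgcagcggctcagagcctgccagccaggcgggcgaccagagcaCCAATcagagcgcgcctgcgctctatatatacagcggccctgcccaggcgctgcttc
H2BC12: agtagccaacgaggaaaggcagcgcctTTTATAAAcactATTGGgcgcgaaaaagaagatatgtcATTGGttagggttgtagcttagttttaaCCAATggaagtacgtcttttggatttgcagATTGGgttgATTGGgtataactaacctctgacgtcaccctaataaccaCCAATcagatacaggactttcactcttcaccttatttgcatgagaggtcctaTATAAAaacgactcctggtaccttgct
H2AC6: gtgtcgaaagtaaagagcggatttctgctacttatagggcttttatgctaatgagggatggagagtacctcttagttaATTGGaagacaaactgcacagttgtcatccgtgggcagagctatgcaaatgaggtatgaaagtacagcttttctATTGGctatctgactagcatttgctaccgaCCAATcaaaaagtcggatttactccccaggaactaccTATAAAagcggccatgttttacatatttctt
The H1-2 sequence is chr6:26056471-26056720 on the minus strand, with 1 CCAAT and no TATAAA match. The H2BC12 sequence is chr6:27146859-27147108 on the minus strand, with 6 CCAAT and 3 TATAAA matches. The H2AC6 sequence is chr6:26123922-26124171 on the plus strand, with 3 CCAAT matches and 1 TATAAA match.

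Few members were abundant. A filter that asked for 1 TPM or more in 3 or more libraries kept 28 of the 69 (40.6%), against 60.6% of protein-coding genes. Of the 41 that it left out, 22 were listed at 0 in all 9 libraries (31.9% of members, against 16.2% of protein-coding genes) and 19 had some value above 0. The filter kept 2 H1, 8 H2A, 8 H2B, 4 H3 and 6 H4 genes. H2AC13 and H3C12 lay just inside it, with medians over the 9 libraries of 0.58 and 0.416 TPM, and H4C2 and H3C13 just outside, with medians of 0.719 and 0.531 TPM. These medians show that the members at the edge of the filter had like levels on both sides of it.

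Only 7 members had a mean of at least 5 TPM. The linker histone gene H1-2 led with a mean of 85.4 TPM, followed by the H2B gene H2BC12 with 76.2 TPM and the H2A gene H2AC19 with 43.4 TPM. H2BC5 averaged 23.8 TPM, H2AC18 20.9 TPM, H2AC6 15.5 TPM and H4C14 13.8 TPM. No H3 gene reached that level: the highest, H3C3, averaged 2.50 TPM. For scale, the median of the protein-coding genes that passed the filter was 22.1 TPM. The 41 members that were not tested summed to 5.49 TPM per library on average, 1.66% of the members' total.

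H2B genes held the highest share of the total, and H1 and H2A genes held similar shares. Of a mean of 329.8 TPM over all 69 members, the H2B genes held 35.5%, the H1 genes 26.8%, the H2A genes 26.5%, the H4 genes 8.93% and the H3 genes 2.15%. Between libraries the share of H2B ranged from 33.5% to 37.0% and that of H3 from 1.75% to 2.77%. Members known to give polyadenylated transcripts were listed as H1-2, H2AC6, H2BC4, H2BC5, H2BC12 and H2BC21. These 6 held 63.0% of the total (207.9 TPM), and the other 63 members held 37.0% (121.9 TPM). The labels name a standard Illumina library protocol and do not say whether poly(A) RNA was selected.

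**Figure D1:**
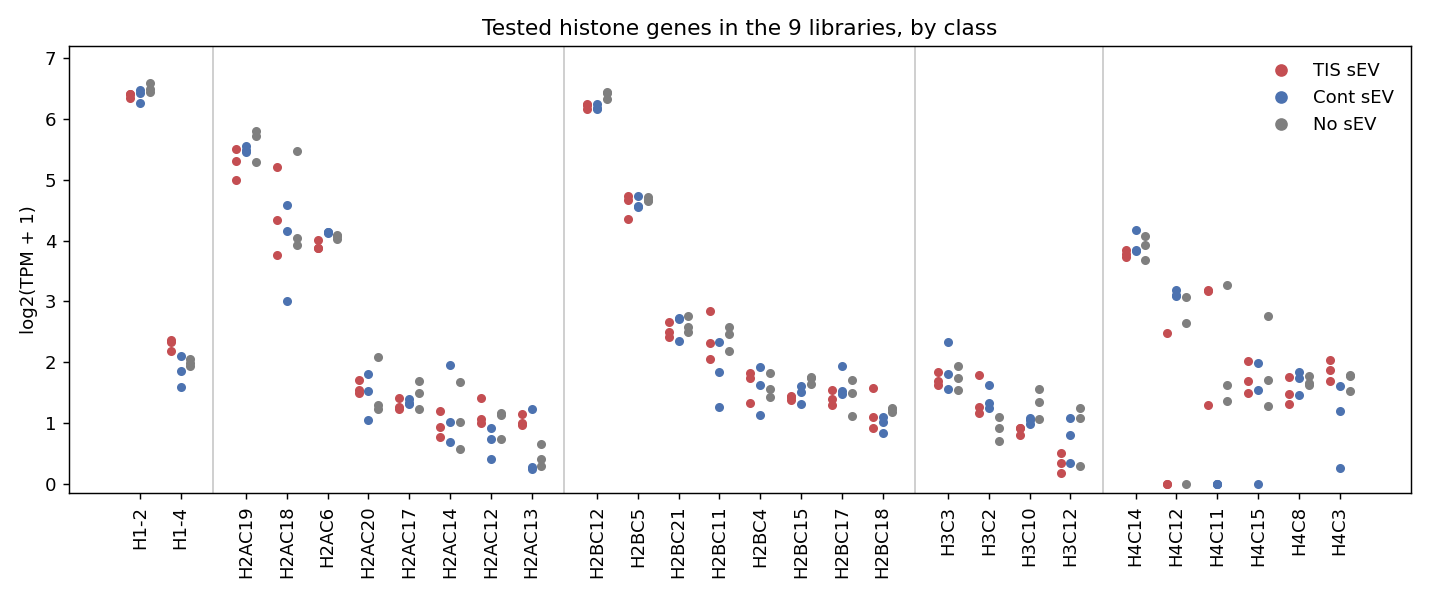
Level of each of the 28 tested members, as log2(TPM + 1), with 1 point per library, the members grouped by class and sorted by mean. H1-2 and H2BC12 lie at the top in all 9 libraries, most members lie below 3 on this scale, and H4C11, H4C12 and H4C15 are at 0 in some libraries.

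The 12 genes listed as replication-independent histone variants were together more abundant in TPM than the 69 members. The labels do not say whether poly(A) RNA was selected, and the part of such a selection in this difference was not tested. The 12 variant genes summed to 3028 to 3094 TPM with TIS sEV, 2961 to 2989 TPM with Cont sEV and 3016 to 3070 TPM with No sEV. H2AZ1, which encodes H2A.Z, averaged 881 TPM, which is above the sum over all 69 members. H3-3B and H3-3A, the genes of H3.3, averaged 819 and 370 TPM, while the H3 members together averaged 7.10 TPM.

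Most expressed genes that share a promoter region differed in level. In GENCODE 29, 12 pairs of members had their 5' ends within 500 bases of each other and ran apart, and 11 of these were an H2A with an H2B gene. Both genes were above 0 in 8 pairs, both were at 0 in 3, and 1 was at 0 in 1 pair. Among the 8 pairs, the higher mean exceeded the lower by a median of 4.93-fold, from 1.16-fold, for H2BC17 and H2AC17, to 78.4-fold. H2BC17 is counted with H3C12 too, at 2.96-fold, because a GENCODE 29 model of H3C12 reaches close to it. In RefSeq, H3C12 lies at chr6:27890315-27890826 and H2BC17 starts at chr6:27893425, so there they are no such pair. The 78.4-fold ratio was that of H2BC12, at 76.2 TPM, and H2AC12, at 0.971 TPM, whose 5' ends lie 331 bases apart around the H2BC12 promoter printed above. H2AC6 averaged 15.5 TPM and H2BC4 2.07 TPM, a ratio of 7.49-fold over 219 bases. H2BC21 averaged 4.99 TPM and H2AC20 1.94 TPM. These are levels per transcript length, and the authors' transcript lengths for these genes are not given in the sources used here.

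Reads from a stretch that several members share cannot be assigned to one of them, and in some such pairs the separate values moved in opposite directions between libraries. By shared stretches of 31 bases, 14 members fell into 7 pairs in which at least 50% of the stretches of 1 partner were found in the other, called near-identical here. The sharing was partial in some of them: 63.8% of the stretches of H2AC13 are found in H2AC14, 60.7% of those of H2BC12L in H2BC12 and 42.4% of those of H3C12 in H2AC17. All stretches of H2AC18 are found in H2AC19, all of H4C12 in H4C11, and 98.6% of those of H4C14 in H4C15. The 250 bases before H2AC18 and H2AC19 share a run of 249 bases, so the copies match outside the transcript too.

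H4C11 and H4C12, both of which encode histone H4, show this most clearly. H4C11 was at 1.46, 7.998 and 8.08 TPM with TIS sEV, was listed at 0 in all 3 Cont sEV libraries, and was at 8.59, 1.58 and 2.07 TPM with No sEV. H4C12 was at 4.57, 0 and 0 TPM with TIS sEV, at 7.64, 7.46 and 8.07 TPM with Cont sEV, and at 0, 5.22 and 7.39 TPM with No sEV. Each library with H4C12 at 0 had H4C11 near 8 TPM. Their sum was 7.37 ± 1.16 TPM with TIS sEV, 7.72 ± 0.312 TPM with Cont sEV and 8.29 ± 1.35 TPM with No sEV (SD, n = 3 each), and the groups overlapped. Within groups, the coefficient of variation was 95.1% for H4C11 and 59.7% for H4C12 alone, and 13.4% for the sum.

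H2AC18 and H2AC19, which encode the same H2A protein, showed this in the TIS sEV and No sEV groups. H2AC18 was at 12.6, 36.1 and 19.2 TPM with TIS sEV, at 23.0, 16.9 and 7.06 TPM with Cont sEV, and at 43.2, 14.1 and 15.5 TPM with No sEV. H2AC19 was at 44.2, 30.8 and 38.5 TPM with TIS sEV, at 43.0, 45.8 and 43.7 TPM with Cont sEV, and at 38.3, 54.7 and 51.9 TPM with No sEV. The library with the highest H2AC18 in the TIS sEV group and that in the No sEV group had the lowest H2AC19 of their group. In the Cont sEV group H2AC19 varied less than H2AC18, and their sum was at 66.0, 62.7 and 50.7 TPM. The coefficient of variation was 60.7% for H2AC18 and 14.8% for H2AC19 alone, and 11.2% for their sum. H4C14, at 12.8 ± 0.587 TPM with TIS sEV, 14.6 ± 2.16 TPM with Cont sEV and 13.9 ± 2.04 TPM with No sEV (SD, n = 3 each), carried most of its sum with H4C15.

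**Figure D2:**
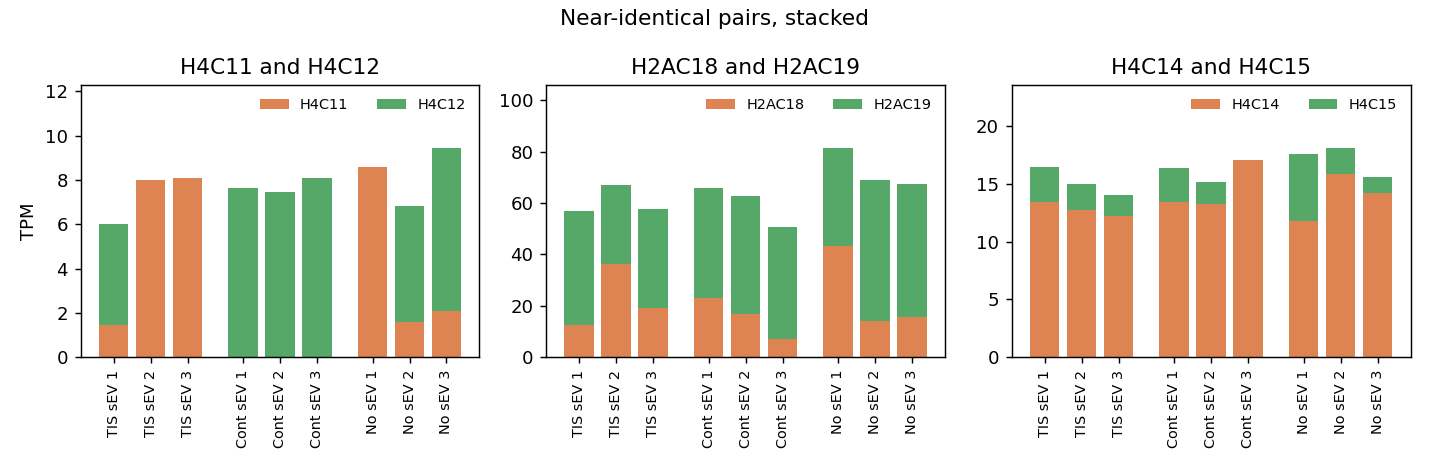
Stacked TPM of 3 near-identical pairs in each library, TIS sEV, Cont sEV and No sEV from left to right. The split between H4C11 and H4C12 and between H2AC18 and H2AC19 varies from library to library, while the stack of H4C11 and H4C12 varies less than either gene.

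Class sums depend less than single values on how reads are split between members of the same class, and are given with no test. Some dependence remains, since TPM are corrected for transcript length and members of a class differ in length. The pair of H2AC17 and H3C12 spans 2 classes, so the H2A and H3 sums depend directly on its split, and H3C12 alone ranged from 0.128 to 1.36 TPM. With TIS sEV and with Cont sEV the members' total was lower than with No sEV, and the totals of both sEV groups were alike. The total was 309.8, 330.5 and 313.0 TPM with TIS sEV, 327.2, 327.9 and 300.1 TPM with Cont sEV, and 367.1, 343.8 and 349.0 TPM with No sEV. All 6 sEV libraries lay below all 3 No sEV libraries. No sEV replicate 1 had the highest total, and the other 2 No sEV libraries were still above every sEV library. The means were 317.8 ± 11.2 TPM, 318.4 ± 15.9 TPM and 353.3 ± 12.2 TPM for TIS sEV, Cont sEV and No sEV (SD, n = 3 each).

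The gap between the sEV groups and No sEV was widest, against its spread, in H2B. The H2B sum was 109.8, 117.0 and 113.1 TPM with TIS sEV, 112.7, 115.4 and 109.3 TPM with Cont sEV, and 123.1, 125.6 and 129.0 TPM with No sEV. No library of either sEV group reached the No sEV range. The H2A sum was 82.6 ± 6.16 TPM with TIS sEV, 83.8 ± 8.35 TPM with Cont sEV and 96.1 ± 8.42 TPM with No sEV (SD, n = 3 each). These did not overlap, but narrowly: the highest sEV library was at 89.7 TPM (TIS sEV) and the lowest No sEV library at 90.9 TPM. H2AC18 and H2AC19 held most of the H2A sum, together 60.5 TPM with TIS sEV, 59.8 TPM with Cont sEV and 72.6 TPM with No sEV on average. The H4 sum was 28.5 ± 1.39 TPM with TIS sEV, 28.9 ± 1.36 TPM with Cont sEV and 31.02 ± 1.06 TPM with No sEV (SD, n = 3 each). Its groups did not overlap either, again narrowly, with the highest sEV library at 29.9 TPM (Cont sEV) and the lowest No sEV library at 30.2 TPM. The H1 sum was 86.8 ± 2.41 TPM with TIS sEV, 85.7 ± 5.90 TPM with Cont sEV and 93.2 ± 4.49 TPM with No sEV (SD, n = 3 each), and Cont sEV overlapped No sEV. Over all libraries H1-2 held 85.4 TPM of a mean H1 sum of 88.5 TPM. The H3 sum was 6.57 ± 0.475 TPM with TIS sEV, 7.64 ± 1.34 TPM with Cont sEV and 7.08 ± 0.881 TPM with No sEV (SD, n = 3 each), and all 3 groups overlapped.

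The members known to give polyadenylated transcripts summed to 200.3 ± 4.40 TPM with TIS sEV, 202.5 ± 8.63 TPM with Cont sEV and 221.0 ± 2.66 TPM with No sEV (SD, n = 3 each), with no overlap between the sEV groups and No sEV. The other 63 members summed to 117.5 ± 8.61 TPM, 115.9 ± 7.57 TPM and 132.3 ± 11.6 TPM in the same groups, with overlap. RNAs that carry no poly(A) tail, such as RN7SK and RMRP, were listed to show how much of such RNA each library held. The 12 of them summed to 235.5 to 474.5 TPM with TIS sEV, 257.5 to 308.6 TPM with Cont sEV and 305.3 to 551.2 TPM with No sEV. The highest sum was in No sEV replicate 1, which also had the highest H2A, H1 and H4 sums. The H2B sum of that library, 123.1 TPM, was the lowest of the No sEV group, and the highest H3 sum, 9.07 TPM, was in Cont sEV replicate 1. The part of that RNA class in the histone values was not tested.

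**Figure D3:**
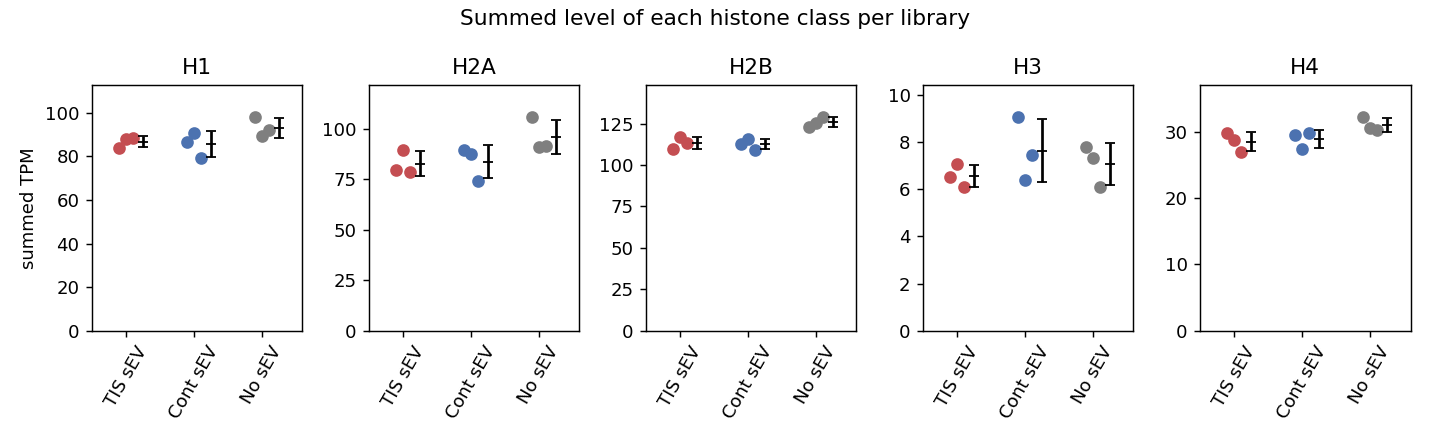
Summed TPM of each histone class in each library (points), with the group mean and SD beside them (bars), TIS sEV, Cont sEV and No sEV from left to right. In H2B, H2A and H4 every sEV library lies below every No sEV library; in H1 the Cont sEV libraries overlap No sEV, and in H3 all groups overlap.

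TIS sEV was first set against Cont sEV, which asks whether the source of the vesicles mattered. No member passed in limma, with Benjamini-Hochberg adjustment across the 13879 genes tested. In that comparison 13 genes passed (0.0937%). At an unadjusted p under 0.05 there were 6 members of 28, 4 higher and 2 lower, and 10.0% of all genes, 7.07% higher and 2.93% lower. H4C11 was among the higher and its near-identical partner H4C12 among the lower. With near-identical members summed, which was chosen after seeing the data, the count was 4 of 23. Of the 28 tested members, 14 lay above 0 and 14 below, where 59.6% of all genes lay above and 40.4% below. The members' median was -0.01 on the log2 scale and that of all genes 0.02. After median-of-ratios rescaling 11 members lay above 0 and 17 below. The groups did not overlap for 7 members (15.4% of all genes), 4 of them higher (10.9% of all genes) and 3 lower (4.47% of all genes). H4C11 and H4C12 were both among these 7 members, while the groups overlapped for their sum.

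The members of smallest p in this comparison lay on both sides of 0. H2AC6, an H2A gene, was at 13.7, 15.1 and 13.7 TPM with TIS sEV and at 16.4, 16.6 and 16.7 TPM with Cont sEV. All 3 TIS sEV libraries were lower, at a log2 fold change of -0.21 (SE 0.05, limma adjusted p = 0.229). H1-4, a linker histone gene, was at 3.52, 4.03 and 4.12 TPM with TIS sEV and at 2.01, 2.64 and 3.27 TPM with Cont sEV. All 3 TIS sEV libraries were higher, at 0.44 (SE 0.13, limma adjusted p = 0.287). H4C3, an H4 gene, was at 3.10, 2.67 and 2.23 TPM with TIS sEV and at 1.296, 0.202 and 2.07 TPM with Cont sEV, a log2 fold change of 0.84 (SE 0.28, limma adjusted p = 0.366). H4C11 had the smallest p (limma adjusted p = 0.186), and no fold is given since it was listed at 0 in every Cont sEV library. Its sum with H4C12 had a log2 fold change of -0.07 (SE 0.13, limma adjusted p = 0.902).

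The most abundant members were close between TIS sEV and Cont sEV. H1-2 was at 82.9 ± 2.09 TPM with TIS sEV and 83.0 ± 6.31 TPM with Cont sEV (SD, n = 3 each), and the 95% interval of its log2 fold change ran from -0.12 to 0.13. For H2BC12 these values were 73.1 ± 1.96 TPM and 72.3 ± 2.16 TPM (SD, n = 3 each). For H2BC5 they were 23.2 ± 3.25 TPM and 23.5 ± 1.70 TPM, with an interval from -0.23 to 0.18. The class medians of the log2 fold change were 0.22 for 2 H1, 0.04 for 8 H2A, -0.00 for 8 H2B, -0.17 for 4 H3 and 0.20 for 6 H4 genes. That of H4 rests on the split of H4C11 and H4C12: with near-identical members summed, which was chosen after seeing the data, it was -0.08. With 1 library left out, the H4 median ran from -0.04 without Cont sEV replicate 3 to 0.42 without Cont sEV replicate 1. The H2A median ran from -0.07 without Cont sEV replicate 3 to 0.13 without Cont sEV replicate 2 and was also below 0 without TIS sEV replicate 1, and that of H2B ran from -0.03 to 0.02, above 0 without Cont sEV replicate 1.

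TIS sEV was then set against No sEV. No member passed, and 1 gene of 13879 did (0.00721%). At an unadjusted p under 0.05 there were 8 members of 28, 3 higher and 5 lower, and 7.97% of all genes, 6.33% higher and 1.64% lower. Of the 28 tested members, 20 were below 0 and 8 above, whereas 33.3% of all genes tested were below 0 and 66.7% above. The median log2 fold change was -0.09 for the members and 0.03 for all genes. Without No sEV replicate 1, 16 members were below 0 and 12 above, with a median of -0.04, and without TIS sEV replicate 2 the median was -0.14. The groups did not overlap for 8 members (14.1% of all genes), 5 of them lower (2.77% of all genes) and 3 higher (11.3% of all genes). All 7 members with a mean of at least 5 TPM were below 0, with a median of -0.12, as were 31.7% of all genes at that level.

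H2BC12 had the smallest p. It was at 74.6, 70.9 and 73.8 TPM with TIS sEV and at 79.0, 84.9 and 85.6 TPM with No sEV, a log2 fold change of -0.18 (SE 0.04, limma adjusted p = 0.318). Every TIS sEV library was below every No sEV library. H3C10, an H3 gene, was at 0.743, 0.888 and 0.894 TPM with TIS sEV and at 1.94, 1.54 and 1.10 TPM with No sEV, a log2 fold change of -0.44 (SE 0.14, limma adjusted p = 0.531). H2BC15, an H2B gene, was at 1.71, 1.70 and 1.59 TPM with TIS sEV and at 2.36, 2.40 and 2.11 TPM with No sEV, a log2 fold change of -0.30 (SE 0.11, limma adjusted p = 0.580). For both, the groups did not overlap and the levels were low.

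H2AC6 was at 15.3, 15.9 and 16.1 TPM with No sEV, above all 3 TIS sEV values given before, at a log2 fold change of -0.14 for TIS sEV (SE 0.05, limma adjusted p = 0.580). H1-2 was at 80.5, 84.0 and 84.2 TPM with TIS sEV and at 95.1, 86.2 and 89.2 TPM with No sEV, a log2 fold change of -0.12 (SE 0.06, limma adjusted p = 0.636). The sum of H2AC18 and H2AC19 was 60.5 ± 5.60 TPM with TIS sEV and 72.6 ± 7.77 TPM with No sEV (SD, n = 3 each), with no overlap, a log2 fold change of -0.26 and a limma adjusted p of 0.596. In the other direction, H1-4 was at 2.98, 3.14 and 2.84 TPM with No sEV, below all 3 TIS sEV values, at a log2 fold change of 0.29 (limma adjusted p = 0.622). H3C2, an H3 gene, was at 1.39, 2.45 and 1.23 TPM with TIS sEV and at 1.14, 0.622 and 0.886 TPM with No sEV, a log2 fold change of 0.50 (limma adjusted p = 0.588). H2AC13 was higher by 0.58 without overlap (limma adjusted p = 0.621), but it shares stretches with H2AC14, and the sum of both had a log2 fold change of 0.25 with overlap. By class the median log2 fold change was 0.09 for H1, -0.08 for H2A, -0.06 for H2B, -0.23 for H3 and -0.14 for H4, and 7 of 8 H2B genes were below 0. With 1 library left out, the H2A median ran from -0.15 without No sEV replicate 2 to 0.06 without No sEV replicate 1, so its sign turned. The H2B median ran from -0.16 without TIS sEV replicate 2 to -0.01 without TIS sEV replicate 1, and the H4 median from -0.21 without TIS sEV replicate 1 to -0.02 without No sEV replicate 1.

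**Figure D4:**
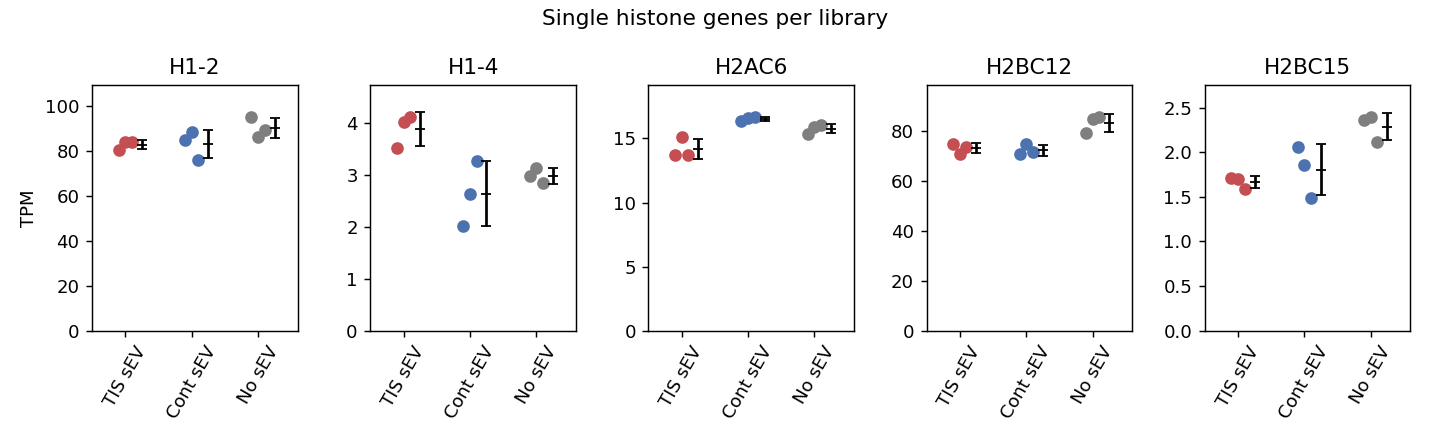
TPM of H1-2, H1-4, H2AC6, H2BC12 and H2BC15 in each library (points), with the group mean and SD (bars), TIS sEV, Cont sEV and No sEV from left to right. H2BC12 and H2BC15 are highest with No sEV, H2AC6 is lowest with TIS sEV, and H1-4 is highest with TIS sEV; no member passed the test.

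Cont sEV was set against the same No sEV libraries, so the values that follow are not independent of those above. No gene of 13879 passed in limma (0% called), and 5 members of 28, 1 higher and 4 lower, had an unadjusted p under 0.05, as had 6.03% of all genes, 3.53% higher and 2.5% lower. Of the 28 tested members, 20 were below 0 and 8 above, whereas 43.5% of all genes were below 0 and 56.5% above, and the medians were -0.11 for the members and 0.01 for all genes. Without No sEV replicate 1 the members' median was -0.07, with 19 below 0. Of the 7 members with a mean of at least 5 TPM, 5 were below 0 and 2 above, with a median of -0.11. Among all genes at that level 43.7% were below 0. The groups did not overlap for 7 members (11.2% of all genes), 4 of them lower (4.47% of all genes) and 3 higher (6.72% of all genes). H2BC12 again had the smallest p, at 70.6, 74.7 and 71.5 TPM with Cont sEV against 79.0, 84.9 and 85.6 TPM with No sEV, a log2 fold change of -0.20 (SE 0.04, limma adjusted p = 0.610). No Cont sEV library reached the No sEV range.

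H3C2 was at 1.36, 1.498 and 2.08 TPM with Cont sEV, above all 3 No sEV values, at a log2 fold change of 0.49 (SE 0.19, limma adjusted p = 0.807). H4C3 was at a log2 fold change of -0.67 (SE 0.28, limma adjusted p = 0.807), with overlap. H4C11, listed at 0 in Cont sEV, came second by p (limma adjusted p = 0.732) and has no fold. H1-2 was at -0.12 and overlapped. H2AC6 was higher with Cont sEV by 0.06 without overlap (limma adjusted p = 0.910), so that its order was TIS sEV below No sEV below Cont sEV. The sum of H2AC18 and H2AC19 was 59.8 ± 8.02 TPM with Cont sEV (SD, n = 3), below all 3 No sEV libraries, at a log2 fold change of -0.28 (limma adjusted p = 0.802). The class medians were -0.13 for H1, -0.09 for H2A, -0.13 for H2B, 0.02 for H3 and -0.34 for H4, and -0.08 for H4 with near-identical members summed. With 1 library left out, the H3 median ran from -0.18 without No sEV replicate 3 to 0.14 without Cont sEV replicate 2 and was also below 0 without Cont sEV replicate 1. The H4 median ran from -0.42 without Cont sEV replicate 1 to -0.10 without Cont sEV replicate 3, and the H1, H2A and H2B medians stayed below 0.

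**Figure D5:**
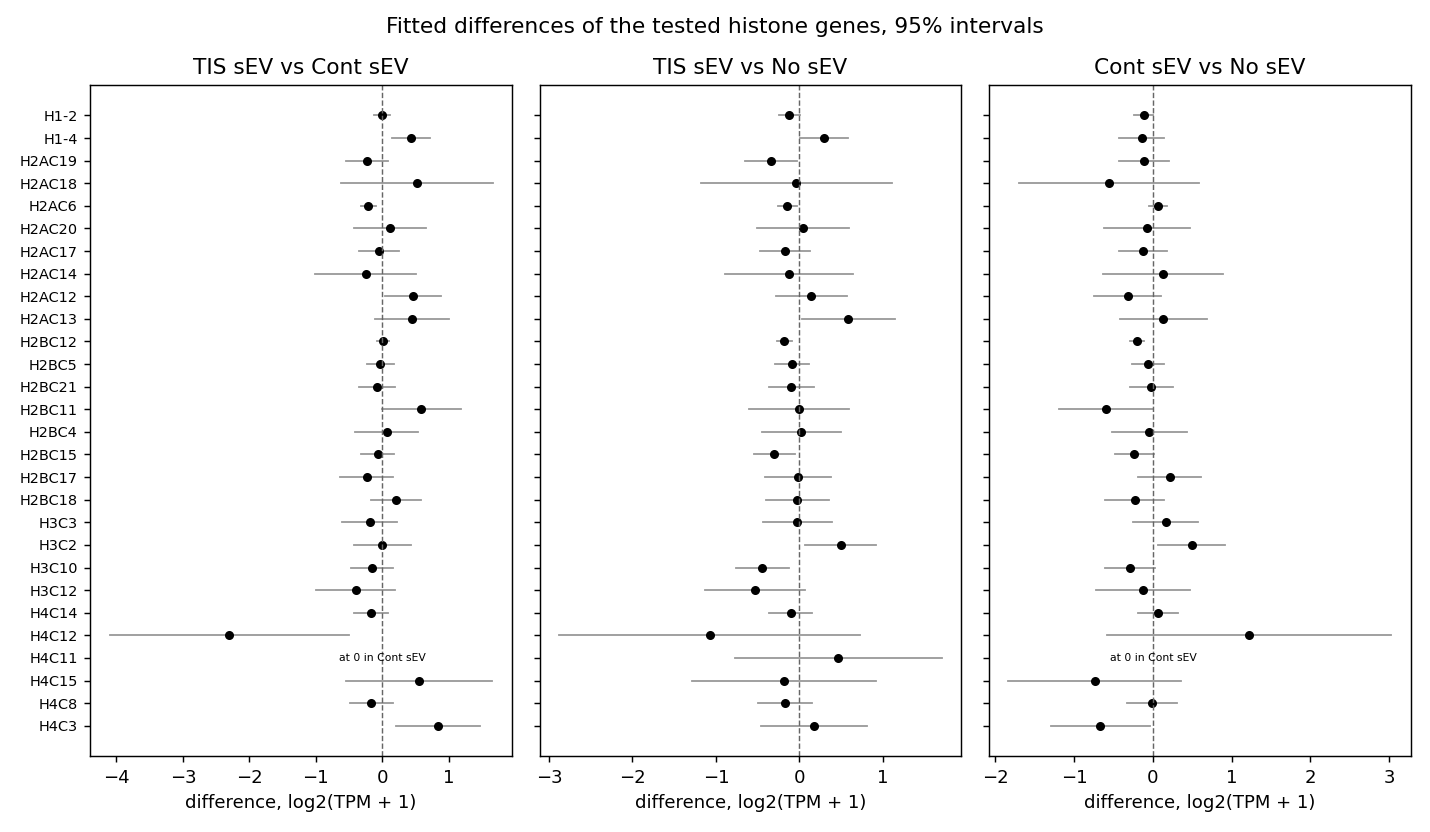
Fitted differences on the log2(TPM + 1) scale of the 28 tested members in the 3 comparisons (points) with 95% intervals (lines), sorted as in the plot of levels. The intervals are narrow for H1-2, H2AC6 and H2BC12 and wide for H4C11, H4C12, H4C15 and H2AC18, which have near-identical partners. H4C11 is at 0 in every Cont sEV library and has no point or interval in the comparisons that include Cont sEV. In both comparisons with No sEV 20 of 28 fitted values are below 0. The undrawn value of H4C11 in Cont sEV vs No sEV is among them.

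A moderated F test over the 3 groups passed for 3 genes (0.0216%) and for no member. The smallest adjusted p among members was 0.254, for H2BC12.

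The machinery around these genes was measured with lists of related genes, and none of their members passed in any comparison. SLBP, which binds the stem-loop, averaged 87.7 ± 1.94 TPM with TIS sEV, 86.8 ± 1.52 TPM with Cont sEV and 87.6 ± 2.51 TPM with No sEV (SD, n = 3 each). NPAT, the activator of histone gene transcription, averaged 12.4 TPM and CASP8AP2, a component of the histone locus body, 8.62 TPM over all libraries. In TIS sEV vs Cont sEV, 21 of 27 genes of histone mRNA synthesis and processing were above 0, with a median of 0.04. So were 14 of 19 histone chaperone genes, with a median of 0.07, and 18 of 20 S phase markers, with a median of 0.07, where 59.6% of all genes were above 0. Against No sEV, 16 of 20 S phase markers were above 0 with TIS sEV (66.7% of all genes) and 4 of 20 with Cont sEV (56.5% of all genes).

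The genes of smallest p on these lists lay above 0 in TIS sEV vs Cont sEV, and none passed. NASP, a chaperone of H1 and H3, had a log2 fold change of 0.23 (SE 0.04, limma adjusted p = 0.1103). PCNA, the replication clamp, had one of 0.11 (SE 0.03, limma adjusted p = 0.234), and E2F1, a transcription factor of the G1/S step, one of 0.14 (SE 0.04, limma adjusted p = 0.248). Against No sEV, TIS sEV had CDK2, a kinase of S phase entry, at 0.22 (SE 0.05, limma adjusted p = 0.318). All 10 tested histone variants were above 0 in TIS sEV vs Cont sEV, with a median of 0.04. H2AX, the variant phosphorylated at DNA breaks, was at 79.2, 85.3 and 84.3 TPM with TIS sEV, at 74.0, 71.9 and 72.4 TPM with Cont sEV, and at 78.1, 77.2 and 75.1 TPM with No sEV. Its TIS sEV libraries lay above all others, at a log2 fold change of 0.19 against Cont sEV (SE 0.04, limma adjusted p = 0.128) and 0.11 against No sEV (SE 0.04, limma adjusted p = 0.539). In TIS sEV vs Cont sEV, the log2 fold changes of H3-3A, H3-3B and H2AZ1 were within 0.03 of 0.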

How the data were processed

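The authors deposited 1 table of TPM for 60719 Ensembl genes in 9 libraries. Salmon 1.4.0, DESeq2 1.28.0, Trim Galore 0.6.6 and FastQC 0.11.9 are the tools, and GRCh38.p13 the build, per the submitters' processing notes. The annotation release and the strand setting are not given in the sources used here. Depth is lost in TPM, so counting error is unknown and no count model was fitted. A TPM per gene depends on how the quantifier splits reads among near-identical copies.

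Members were found by symbol through Ensembl IDs; 67 were named directly, and H2AC18 and H2AC19 through their older GENCODE 29 names. Of the symbol matches, 13 were not protein-coding and were left out. The 13879 genes that reached 1 TPM in 3 libraries were tested on log2(TPM + 1), which understates folds of low genes, with limma 3.58.1 in R 4.3.3: all 9 libraries in one fit, a variance trend, two-sided tests, Benjamini-Hochberg adjustment over all genes per comparison, threshold 0.05. Class sums, medians and lists of related genes got no test. The steps were tested on simulated data.

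Members and lists were chosen with earlier results of these data known. Named were members that averaged 5 TPM or more, the 4 of smallest p per comparison, the highest of each class, those at the edge of the filter, up to 3 genes of smallest p per related list and a fixed set of regulators and variants. Members named beside these, such as those in divergent or near-identical pairs, were picked after their values were seen. Alternatives were other pseudocounts and filters, 3 scalings, a fit with the replicate number as a block, fits with library weights or with a constant prior variance, fits on the compared libraries alone, the removal of each library in turn, and, added later, near-identical members summed and rescaled class sums.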

Additional observations from a re-analysis of the deposited data

How the results depend on the processing

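No member passed in any comparison under any alternative but 1: with a pseudocount of 0.1, H4C11 passed in TIS sEV vs Cont sEV (limma adjusted p = 0.0301, and no fold since Cont sEV is at 0), so 1 member passed there. Over its other 18 alternatives the limma adjusted p of H4C11 ranged from 0.0945 to 0.456. Class medians, which rest on 2 to 8 genes each, moved. That of H4 in TIS sEV vs Cont sEV, 0.20, was 0.66 with a pseudocount of 0.1, -0.081 with no filter, -0.16 with at least 1 TPM in all 9 libraries and -0.0803 with near-identical members summed. That of H3 in TIS sEV vs No sEV, -0.23, was -0.40, -0.0506, -0.0262 and -0.0262 under the same 4 settings. That of H4 in Cont sEV vs No sEV, -0.34, was -0.64, -0.00326, 0.0249 and -0.0760. The genes passing in TIS sEV vs No sEV, 1, were 9 with no filter, 0 with a constant prior variance and 2 with only the 6 libraries compared. In Cont sEV vs No sEV, 0, they were 7 with no filter and 1 with at least 1 TPM in all 9 libraries. In TIS sEV vs Cont sEV, 13, they were 2 with a constant prior variance and 3 with only the 6 libraries compared. Leaving out 1 library at a time gave 2 to 13 genes in TIS sEV vs Cont sEV, 1 to 2 in TIS sEV vs No sEV and 0 to 1 in Cont sEV vs No sEV, and an H3 median in Cont sEV vs No sEV from -0.18 to 0.14. Apart from the sums, where near-identical members were joined, the cause of these moves was not tested. With the replicate number as a block, 9 genes and no member passed in TIS sEV vs Cont sEV, and 1 and 0 genes in the comparisons of TIS sEV and Cont sEV with No sEV. Same-numbered libraries showed no common deviation (r from -0.06 to 0.14 over 9 pairs, and the best match had the same number in 5 of 18 cases). With 3 libraries per group this cannot exclude that the numbers pair them. Class sums after median-of-ratios rescaling stayed within 1 SD. Read depth is unknown, so what it limits cannot be stated; 3 libraries per group limit the precision.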
